A study of Sus scrofa with 70 samples.

Results

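The miR-34 and miR-449 family was described here across the testis, the epididymis and the 3 accessory sex glands of boars, from a table of small RNA abundance. Members were the entries whose name begins with ssc-miR-34 and a letter a, b or c, or with ssc-miR-449. The rule found 3 of the 743 entries of the table, or 2 of its 676 distinct names: ssc-miR-34a with 1 entry and ssc-miR-34c with 2 entries. The 2 rows of ssc-miR-34c held identical values in all 30 libraries and were treated as 1 miRNA. No entry began with ssc-miR-34b or ssc-miR-449 (0 entries each), so the levels of those miRNAs were not analysed here.

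The animals were boars 12 months old of the Banna mini-pig inbred line (BMI) and of Diannan small-ear pigs (DSE), the non-inbred stock from which BMI was bred. The glands were the testis, the epididymis, the vesicular gland, the prostate gland and the bulbourethral gland, with 3 small RNA and 3 RNA-seq libraries for each breed and gland and 1 Iso-seq library of full-length transcripts for each. No treatment was given. The labels number the replicates but do not tie them to an animal, so p-values measure only the spread between these libraries. Abundance is in RPM, the reads of a miRNA in each 1000000 reads counted on all miRNAs of a library. In units of 1000000 miRNA reads, the depth was 1.29 to 11.8 in testis and 13.1 to 21.7 in the other glands over the 28 libraries whose reads could be recovered. In the RNA-seq libraries of testis all 10 spermatid markers were called higher than in the other glands, where 34.6% of all genes were, and in those of epididymis 5 of the 5 epididymis markers in the table were called higher than in the accessory glands, where 17.7% were. These are bulk tissues, in which fewer cells of a type and less RNA per cell cannot be told apart.

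miRNAs of this family share a seed, the bases near the 5′ end that pair with target mRNAs. In mammals miR-34a has a gene of its own that p53 activates, miR-34b and miR-34c come from a common transcript, and miR-449 lies in an intron of CDC20B. The family is known for high levels in multiciliated cells and in meiotic and postmeiotic male germ cells, where its joint loss impairs motile cilia and sperm formation.

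The sequence of ssc-miR-34c is shown because the main result rests on it, with the seed (bases 2 to 8 from the 5′ end) in capitals in the mature form and the mature form in capitals in the precursor. Both were read from the Sscrofa11.1 assembly at the RefSeq positions, chr9:39280290-39280312 for the mature form and chr9:39280278-39280357 for the precursor, plus strand.
ssc-miR-34c: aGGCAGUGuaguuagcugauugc
ssc-mir-34c-1: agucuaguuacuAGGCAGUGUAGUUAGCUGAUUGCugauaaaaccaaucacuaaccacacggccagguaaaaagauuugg
The mature sequence takes positions 13 to 35 of the 80-base precursor. It occurred 1 time in the whole assembly, on either strand. Of the 369 mature names that RefSeq places on this assembly, ssc-miR-34c was the 1 name with this seed, also when only bases 2 to 7 were compared. ssc-miR-34a is named only.

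ssc-miR-34c was a testis miRNA in both breeds. In the BMI testis libraries it stood at 4434, 2371 and 3652 RPM, and in the DSE testis libraries at 4906, 1218 and 4939 RPM. These values rest on 5740 to 34010 reads a library and correspond to 0.122% to 0.494% of all miRNA reads and to ranks 19 to 49 among the names of a library. The lowest testis library, DSE replicate 2, still lay above the highest library of any other gland.

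In the epididymis ssc-miR-34c had the widest range relative to its level. The BMI epididymis libraries held 12.7, 93.3 and 78.0 RPM and the DSE epididymis libraries 78.2, 1.82 and 13.8 RPM. The range from 1.82 to 93.3 RPM overlapped those of all 3 accessory glands. The bulbourethral gland was the most even of the glands with a moderate level, at 51.7, 35.6 and 34.8 RPM in BMI and 58.8, 37.0 and 51.2 RPM in DSE.

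The vesicular gland and the prostate gland had the lowest levels of ssc-miR-34c. Vesicular gland libraries held 3.57, 3.16 and 3.98 RPM in BMI and 3.17, 3.08 and 1.80 RPM in DSE. Prostate gland libraries held 6.44, 3.93 and 3.67 RPM in BMI and 2.03, 8.55 and 2.91 RPM in DSE. At these levels ssc-miR-34c was still counted, with 35 to 135 reads in each of the libraries of these glands whose reads could be recovered.

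**Figure D1:**
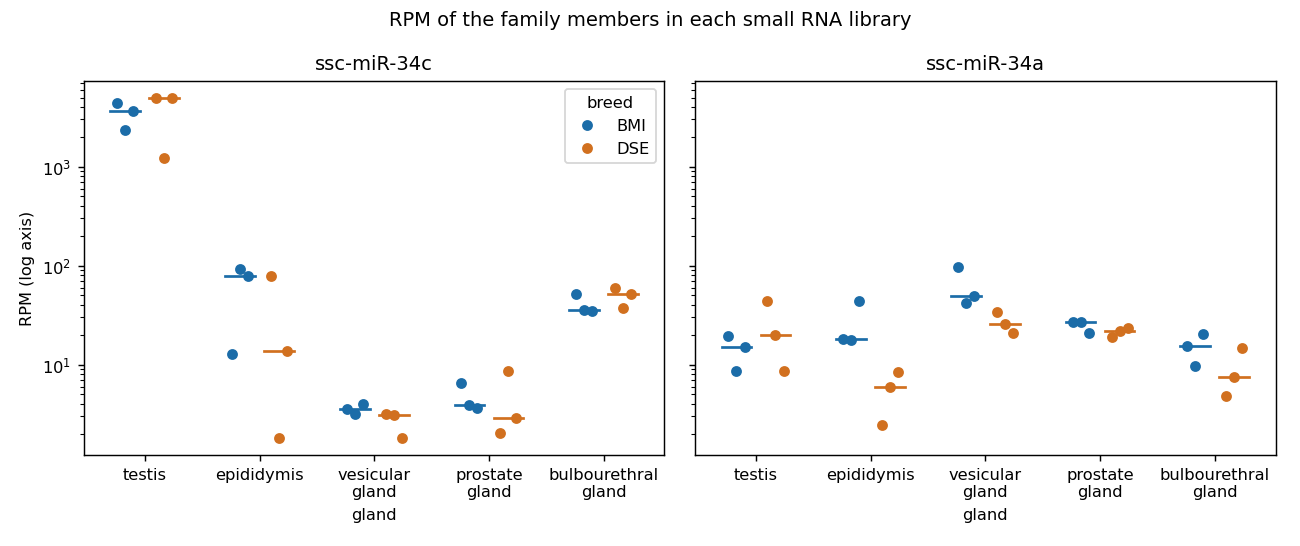
RPM of ssc-miR-34c (left) and ssc-miR-34a (right) on a log axis in each of the 30 small RNA libraries, by gland and breed; points are libraries and bars are medians of 3. ssc-miR-34c sits at 1218 to 4939 RPM in testis and below 100 RPM in every other library, whereas ssc-miR-34a stays between 2.46 and 97.1 RPM throughout.

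The comparison of testis with the mean of the other 4 glands asked how far the level in the gonad departs from that in the ducts and glands. ssc-miR-34c was higher in testis by 8.01 on the log2(RPM + 1) scale (SE 0.44, limma adjusted p = 2.59e-15), a 257-fold difference on that scale. Among all 526 entries tested, 311 were called higher in testis (59.1%) and 22 lower (4.18%), so a call in this direction was common. Calls needed an adjusted p below 0.05 and a log2 difference of at least 1 in size. The median difference over all entries was 1.34, and that of ssc-miR-34c was the 8th highest of 468 names. After scaling by size factors (medians of ratios between libraries) the split was 113 higher and 88 lower and the median of all entries was 0.09, while ssc-miR-34c kept its call under every alternative tried. Its difference was smaller with size factors, at 6.42 (85.4-fold), and with edgeR on recovered reads, at 6.19 (73.2-fold).

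Among the glands in order of level, testis exceeded the bulbourethral gland, the next highest on the log scale, by 6.17 (SE 0.55, adjusted p = 1.23e-10) in ssc-miR-34c. In that comparison 67.1% of entries were called in either direction. Against the epididymis, the prostate gland and the vesicular gland the differences were 6.94, 9.28 and 9.63, where 64.1%, 62% and 70.7% of entries were called. All 4 differences of testis from a gland were smaller under the other scalings and remained called: with size factors they were 4.50 for the bulbourethral gland, 5.49 for the epididymis, 7.82 for the prostate gland and 7.85 for the vesicular gland, and with edgeR 4.28, 4.93, 7.71 and 7.86. The bulbourethral gland and the epididymis did not differ beyond their spread, with a log2 difference of -0.77 for epididymis minus bulbourethral gland (95% confidence interval -1.90 to 0.37, adjusted p = 0.359, 17.3% called). Without DSE replicate 1 of the epididymis this difference was called, at -1.37 (adjusted p = 0.0341). The epididymis exceeded the prostate gland by 2.35 (SE 0.55, adjusted p = 0.00352, 12% of entries called). The vesicular gland and the prostate gland did not differ beyond their spread, with -0.35 for vesicular minus prostate gland (interval -1.49 to 0.79, adjusted p = 0.841, 14.4% called). The bulbourethral gland stood above both, with -3.47 for vesicular minus bulbourethral gland (adjusted p = 1.89e-05, 24.7% called) and -3.11 for prostate minus bulbourethral gland (adjusted p = 2.00e-04, 12.5% called).

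Against the mean of the 3 accessory glands, ssc-miR-34c was called higher in epididymis by 1.43 (SE 0.45, adjusted p = 0.0201). Of all entries, 12% were called higher and 2.66% lower in this comparison. The call was lost when BMI replicate 2, BMI replicate 3 or DSE replicate 1 of the epididymis was left out, with log2 differences of 1.17, 1.24 and 0.825. Those 3 libraries held the highest epididymal values of ssc-miR-34c.

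ssc-miR-34a, a p53-responsive member in mammals, ranged from 2.46 to 97.1 RPM over all libraries, with its highest values in the vesicular gland. Vesicular gland libraries held 97.1, 42.3 and 49.4 RPM in BMI and 33.98, 25.7 and 21.0 RPM in DSE. Prostate gland libraries were the most even, at 27.2, 26.9 and 21.0 RPM in BMI and 18.9, 22.0 and 23.3 RPM in DSE. The testis libraries, at 19.3, 8.52 and 15.1 RPM in BMI and 43.7, 19.7 and 8.70 RPM in DSE, overlapped those of every other gland.

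The lower end of ssc-miR-34a lay in the epididymis and the bulbourethral gland. Epididymis libraries held 18.3, 17.6 and 44.2 RPM in BMI and 2.46, 5.97 and 8.35 RPM in DSE, with every BMI value above every DSE value. How many of all entries separate the breeds in this way was not counted. Bulbourethral gland libraries held 15.5, 9.71 and 20.3 RPM in BMI and 4.85, 7.47 and 14.6 RPM in DSE, and there the breeds overlapped.

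Testis and the other glands did not differ in ssc-miR-34a on the RPM scale, with a log2 difference of -0.16 (SE 0.28, interval -0.74 to 0.42, adjusted p = 0.602). The same difference was called lower in testis after scaling by size factors, at -1.65 (adjusted p = 3.12e-05), and with edgeR on recovered reads, at -2.02 (adjusted p = 1.6e-05). The median entry rose by 1.34 in testis on the RPM scale, and ssc-miR-34a stood at place 412 of 468 names in this comparison. Its lack of a call in testis therefore holds for its share of miRNA reads and not relative to the median entry.

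In the order of ssc-miR-34a levels, vesicular gland, prostate gland, testis, epididymis and bulbourethral gland, no neighbours were called different. The log2 differences were 0.75 for vesicular minus prostate gland (adjusted p = 0.145), -0.46 for testis minus prostate gland (adjusted p = 0.251), 0.49 for testis minus epididymis (adjusted p = 0.207) and 0.06 for epididymis minus bulbourethral gland (adjusted p = 0.942). The order depended on the scaling: with size factors and edgeR, vesicular minus prostate gland (1.15 and 1.28) and testis minus prostate gland (-1.83 and -2.29) were called, testis minus epididymis turned to -0.84 and -0.864 and epididymis minus bulbourethral gland to -0.125 and -0.506. Over larger steps the vesicular gland exceeded the bulbourethral gland by 1.76 (adjusted p = 3.29e-04), and epididymis minus vesicular gland was -1.71 (adjusted p = 5.22e-04, 21.9% called), with -2.14 under size factors and -2.71 with edgeR. Testis minus vesicular gland, at -1.22 (adjusted p = 0.00309), and prostate minus bulbourethral gland, at 1.01 (adjusted p = 0.04995), were called as well. The former was -2.98 with size factors and -3.57 with edgeR and was lost without DSE replicate 3 of the testis (-0.942), and the latter was lost in 24 of 36 alternatives, size factors (0.867) and edgeR (0.919) included. In the epididymis against the accessory glands the difference was -0.87 (SE 0.29, adjusted p = 0.0269), under the log2 difference of 1 that a call needs. It was called with size factors (-1.09), with edgeR (-1.55) and without replicate 3 of the BMI or the DSE epididymis (-1.08 and -1.02).

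**Figure D2:**
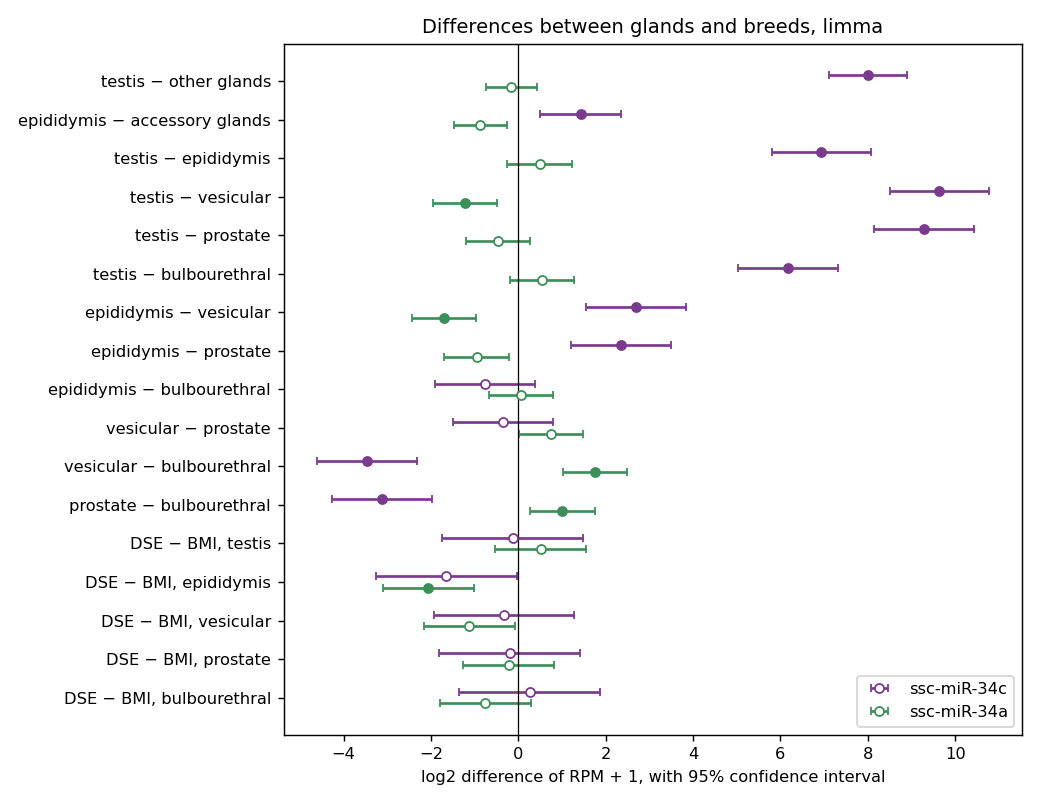
Log2 differences of RPM + 1 between glands and between breeds within a gland for ssc-miR-34c and ssc-miR-34a, with 95% confidence intervals from limma; filled points were called. Differences of testis from other glands lie at 6.17 or above for ssc-miR-34c, and the breed difference of ssc-miR-34a in epididymis, at -2.06, is the called breed difference.

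The balance of the members changed from gland to gland. ssc-miR-34c exceeded ssc-miR-34a in 6 of 6 testis libraries, by 61.8 to 568 times, and in 6 of 6 bulbourethral gland libraries, by 1.72 to 12.1 times. ssc-miR-34a exceeded ssc-miR-34c in all vesicular gland libraries, where the ratio of ssc-miR-34c to ssc-miR-34a was 0.0368 to 0.120, and in all prostate gland libraries, where it was 0.108 to 0.389. In the epididymis the ratio ran from 0.305 to 31.8 and was above 1 in 4 of 6 libraries. Since the members of a library share its total, this ratio does not depend on the scaling between libraries.

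The comparison of DSE with BMI asked whether the inbred line and its source stock differ within a gland. ssc-miR-34c passed the test in none of the 5 glands. Its log2 difference of DSE minus BMI was -0.13 in testis (interval -1.74 to 1.48, adjusted p = 0.967), where 8.37% of entries were called. In epididymis it was -1.65 (interval -3.26 to -0.04, adjusted p = 0.166), with 6.46% of entries called. Without DSE replicate 1 of the epididymis this difference was called, at -2.85 (adjusted p = 0.00968), and without BMI replicate 1 it was called at -2.53 (adjusted p = 0.0435). In the vesicular, prostate and bulbourethral glands its differences were -0.33, -0.20 and 0.26, with adjusted p from 0.88 to 1, where 1.14%, 0.57% and 4.18% of entries were called.

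ssc-miR-34a was called lower in DSE epididymis, by -2.06 on the log2 scale (SE 0.51, adjusted p = 0.0162). In that comparison 33 entries were called lower (6.27%) and 1 higher (0.19%), and the median of all entries was -0.54. With size factors 3 entries were called lower and 2 higher with a median of -0.02, and with edgeR 4 lower and 2 higher. The call was lost after scaling by size factors, at -1.40 (adjusted p = 0.273), and with edgeR on recovered reads, at -0.716 (adjusted p = 0.744). The edgeR fit left out BMI replicate 3 of the epididymis, which held the highest ssc-miR-34a value, because its reads could not be recovered. Leaving that library out of limma gave -1.64 (adjusted p = 0.0751), and leaving out DSE replicate 2 gave -2.15 (adjusted p = 0.0519). In the vesicular gland the difference was -1.13 (interval -2.17 to -0.09, adjusted p = 0.19) beside a median of -0.39 over all entries, and in testis it was 0.51 (adjusted p = 0.679).

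Whether the breed difference itself differed between glands was tested with an interaction over the 5 glands. Neither member passed, with adjusted p = 0.167 for ssc-miR-34a and 0.817 for ssc-miR-34c, where 6.84% of entries did. Without DSE replicate 3 of the testis the adjusted p of ssc-miR-34a was 0.0492.

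The predicted miRNA chr9_43949 had the profile most like that of ssc-miR-34c. By the Pearson r of mean log2(RPM + 1) over the 10 groups of breed and gland, the nearest entries were chr9_43949 (r = 0.983), ssc-miR-423-3p (0.975), chr3_25174 (0.971), ssc-miR-296-3p (0.971) and ssc-miR-331-3p (0.967). These r describe 10 group means that share libraries and are dominated by the gap between testis and the rest. The entry chr9_43949 is named for chromosome 9, which also carries ssc-mir-34c-1. The table gives no sequence or position for it, so its relation to the family was not tested.

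chr9_43949 was high in testis and uneven in epididymis. Testis libraries held 1057, 855 and 944 RPM in BMI and 764, 149 and 546 RPM in DSE, with DSE replicate 2 lowest, as for ssc-miR-34c. Epididymis libraries held 14.0, 36.3 and 122 RPM in BMI and 42.9, 0.23 and 4 RPM in DSE, again with DSE replicate 2 lowest. The bulbourethral gland held 6.51 to 30.1 RPM, the prostate gland 0.09 to 2.27 RPM and the vesicular gland 0.20 to 1.19 RPM. ssc-miR-34c exceeded chr9_43949 by 2.77 to 9.04 times in testis. In epididymis the ratio was 0.637 to 7.91, and chr9_43949 was the higher of the pair in BMI replicates 1 and 3.

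For ssc-miR-34a the nearest entries were less alike, from ssc-miR-29b (r = 0.746) and ssc-miR-210 (0.699) to chr13_11211 (0.698), chrX_48619 (0.683) and ssc-miR-99a-3p (0.664). The medians of ssc-miR-29b were 87.9 RPM in the vesicular gland and 70.6 RPM in testis, against 27.6 to 34.6 RPM in the other glands.

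The RNA-seq libraries placed germ cell RNA beside these values. DSE replicate 2 of the testis stood apart: its 10 spermatid markers summed to 25693 TPM (transcripts of a gene in each 1000000) against 76888 to 117351 TPM in the other 5 testis libraries, and its 6 measured Leydig cell markers to 63648 TPM against 18624 to 32451 TPM. The small RNA library with the same label had the lowest ssc-miR-34c of the testis in RPM. It held 14401 reads of ssc-miR-34c, beside 5740 to 9942 in BMI and 14610 and 34007 in the other DSE testis libraries. It also had the most miRNA reads of the testis, 11.8 against 1.29 to 6.89 in units of 1000000. Its low rank thus holds for the share of miRNA reads. The labels do not state that the small RNA and RNA-seq libraries of a number come from the same tissue piece. Without this small RNA library ssc-miR-34c was higher by 0.545 in DSE than in BMI testis (adjusted p = 0.87).

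Spermatid mRNA was also found in the epididymis, which holds sperm. The summed spermatid markers were 112, 1046 and 20.2 TPM in BMI epididymis and 254, 1.93 and 65.0 TPM in DSE epididymis, against at most 7.40 TPM in any accessory gland library. Of the 10 markers, 5 were called higher in epididymis than in the accessory glands, where 17.7% of all genes were. DSE replicate 2 was lowest in spermatid markers and in ssc-miR-34c, and BMI replicate 2 was highest in both. The order differed in between: BMI replicate 3 had 20.2 TPM of spermatid markers beside 78.0 RPM of ssc-miR-34c, and BMI replicate 1 had more spermatid RNA but less ssc-miR-34c than DSE replicate 3. The 5 smooth muscle markers, all called higher in epididymis than in the accessory glands (5 of 5, median 3.14), ran in the inverse order of ssc-miR-34c over all 6 epididymis libraries. They summed to 2291, 3705, 5040, 7978, 13745 and 20837 TPM beside 93.3, 78.2, 78.0, 13.8, 12.7 and 1.82 RPM. The markers of multiciliated cells, of which 2 of 11 were called higher in epididymis, summed to 12.5 to 155 TPM there without following that order. The 5 measured epididymis epithelium markers summed, in the same order of libraries, to 34260, 34780, 8057, 17780, 3401 and 2062 TPM. BMI replicate 2 and DSE replicate 1 were the highest libraries in both measures, and BMI replicate 1 and DSE replicate 2 the lowest. The bulbourethral gland had 0.839 to 7.40 TPM of spermatid markers at 34.8 to 58.8 RPM of ssc-miR-34c, and the prostate gland 0.0623 to 5.90 TPM at 2.03 to 8.55 RPM. The part of sperm or spermatid RNA, of smooth muscle and of epididymis epithelium in the levels of ssc-miR-34c outside the testis was not tested.

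**Figure D3:**
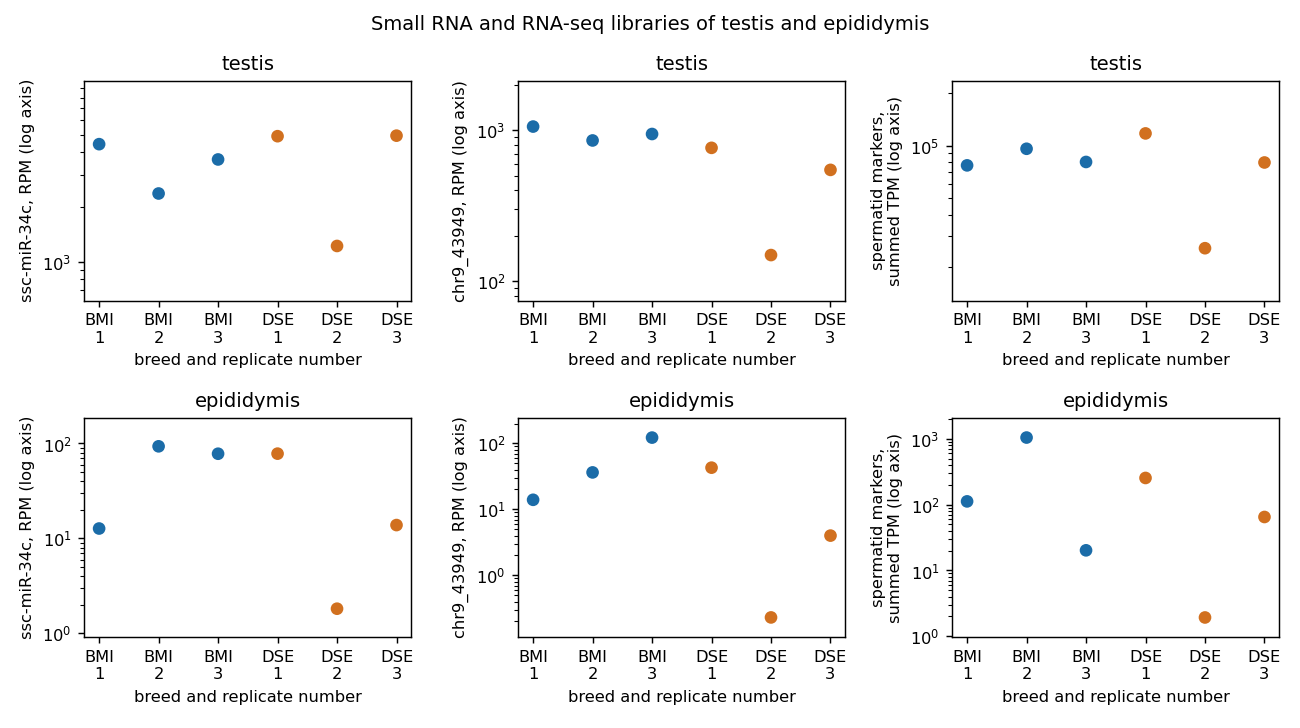
Levels of ssc-miR-34c and of the predicted miRNA chr9_43949 in RPM and the summed TPM of 10 spermatid markers in the libraries of testis (top) and epididymis (bottom), by breed and replicate number, on log axes; blue is BMI and orange is DSE. DSE replicate 2 is the lowest library in all 6 panels, at 1218 RPM in testis and 1.82 RPM in epididymis for ssc-miR-34c.

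The precursor of ssc-miR-34c lies in an intron of HOATZ on the same strand. HOATZ encodes a protein of motile cilia and sperm flagella. The Iso-seq assembly held 4 HOATZ isoforms at this place. In PB.19716.1, PB.19716.2 and PB.19716.3, which start at position 39279125 of chromosome 9, the precursor lies in intron 1, 1153 bases after the start. In PB.19716.1 that intron spans chr9:39279255-39281378 and the precursor is almost central in it, with 1023 bases before and 1021 bases after. PB.19716.4 starts at position 39280345, which is base 68 of the 80-base precursor and 33 bases after the end of mature ssc-miR-34c, and its first exon runs on from there. Ensembl places the start of HOATZ further upstream, at position 39276995, also with the precursor in intron 1. The RefSeq transcript XM_021063948.1, named C9H11orf88, starts on the same strand at position 39278888 and has the precursor in intron 2. The annotations thus differ in the start and in the number of the intron.

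Full-length reads of HOATZ came from the testis libraries of both breeds. DSE testis held 9 reads and BMI testis 5, of 457778 and 455023 full-length reads. The other 8 libraries held 0 reads of 231413 to 458697, which allows up to 6.54 to 12.96 reads in each 1000000, counting error only. The DSE testis value of 19.7, from 9 reads of 1 library, lay above all these limits when its own counting error was left out. It was not tested against them. The BMI testis value of 10.99 lay under those of the shallower libraries, where a difference from BMI testis was not detectable. PB.19716.1 had 6 reads in DSE and 2 in BMI testis, and each of the remaining isoforms, PB.19716.4 included, had 1 read in each.

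**Figure D4:**
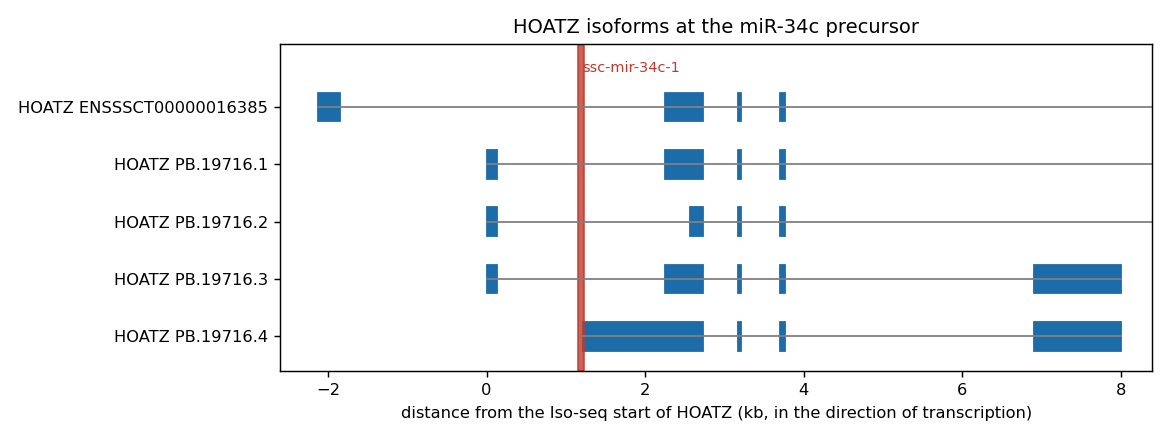
Exons (boxes) of the Ensembl transcript and the 4 Iso-seq isoforms of HOATZ, with introns as lines, against the distance in kb from the Iso-seq start; the red bar is the ssc-mir-34c-1 precursor, and transcripts that run past the right edge continue. The precursor lies 1153 bases after the start of 3 isoforms, and PB.19716.4 begins inside it.

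HOATZ mRNA was high in testis. Testis libraries held 47.3, 40.1 and 64.3 TPM in BMI and 96.0, 23.9 and 96.0 TPM in DSE. The other 24 libraries held 0 to 0.517 TPM, with the highest in BMI replicate 2 of the epididymis, which was also highest there in ssc-miR-34c. The bulbourethral gland, with up to 58.8 RPM of ssc-miR-34c, held at most 0.140 TPM. HOATZ was higher in testis by 5.72 on the log2(TPM + 1) scale (SE 0.18, adjusted p = 7.63e-20), where 34.6% of 19796 genes were called higher and 12.7% lower. It did not pass between epididymis and accessory glands, at 0.18 (adjusted p = 0.431), or between breeds in testis, at 0.28 (adjusted p = 0.773). Without DSE replicate 2 of the testis it was higher in DSE by 0.938 (adjusted p = 0.000883), under the log2 difference a call needs, and without DSE replicate 1 or 3 it was at -0.0416 and -0.042. Of its isoforms PB.19716.1 carried most of the RNA, with 21.0 to 90.1 TPM in testis, while PB.19716.4 had 0.353 to 0.968 TPM there.

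BTG4, an adapter of mRNA deadenylation in oocytes, overlaps the same place on the opposite strand. The precursor lies in intron 2 of its Ensembl transcript and antisense to an exon of the RefSeq transcript XM_021062766.1. BTG4 held 0 to 0.595 TPM in testis and at most 0.0866 TPM elsewhere, and did not reach the filter for testing. The RNA-seq kit is not stated to keep strand, so short reads of overlapping HOATZ and BTG4 exons cannot be told apart.

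The sequence around the Iso-seq start of HOATZ is shown because it would hold the promoter of a transcript that carries ssc-miR-34c. The 300 bases run from 250 before to 50 after the start at chr9:39278875-39279174, plus strand, on Sscrofa11.1.
HOATZ start: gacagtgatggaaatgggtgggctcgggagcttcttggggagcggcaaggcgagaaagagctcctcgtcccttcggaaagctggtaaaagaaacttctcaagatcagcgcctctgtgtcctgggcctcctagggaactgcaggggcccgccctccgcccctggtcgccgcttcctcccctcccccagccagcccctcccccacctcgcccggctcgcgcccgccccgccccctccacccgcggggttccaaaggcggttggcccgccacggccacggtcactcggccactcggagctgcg
Its GC content was 69.3%, against a median of 57% over 84773 windows of the same length at starts in the deposited annotation. Both strands were searched for CAACTG or CAACGG (MYB), GTTGCC (part of an RFX site), TGACGTCA (CRE) and TGACG (part of the CRE, so each CRE also holds it). None was found in the window, and they occurred in 16.2%, 12.6%, 1.87% and 23.1% of all windows. The absence says only that these letters are not in this window.

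CDC20B, the gene whose intron holds miR-449 in mammals, was a testis gene here. Its levels were 7.99, 9.87 and 10 TPM in BMI testis and 4.04, 2.11 and 3.98 TPM in DSE testis, against 0 to 0.352 TPM in the other glands. It was higher in testis by 2.56 (SE 0.10, adjusted p = 3.09e-18) and did not pass in epididymis, at 0.04 (adjusted p = 0.802). It was lower in DSE than in BMI testis by -1.26 (SE 0.17, adjusted p = 1.4e-05), where 1.1% of genes were called higher and 3.68% lower. The breed difference was -1.03 (adjusted p = 1.66e-05) without DSE replicate 2 of the testis, and it was not called with a pseudocount of 0.1, at -1.48 (adjusted p = 0.134).

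Genes of the multiciliated cell programme and the host genes were mostly higher in testis. Of 19 listed genes 18 were in the table and 16 passed the filter, of which 11 were called higher in testis and 0 lower, where 34.6% of all genes were called higher and 12.7% lower. Their median log2 difference was 2.19 against 0.31 over all genes. Markers of spermatocytes (9 of 10 called higher and 1 lower, median 4.04), of spermatids (10 of 10 higher, median 9.29) and of multiciliated cells (7 of 11 higher, median 1.81) moved with this comparison, and their part was not tested. RFX2, a transcription factor of cilia and spermiogenesis genes, had 54.4 to 216 TPM in testis and 0.154 to 8.46 TPM in the other glands (6.15, SE 0.25, adjusted p = 1.18e-17). CDC20, an activator of the anaphase-promoting complex, had 47.7 to 231 TPM against 0.443 to 10.8 TPM (5.27, adjusted p = 3.19e-13). PLK4, the kinase that starts centriole duplication, had 17.6 to 76.6 TPM against 0.187 to 1.83 TPM (4.85, adjusted p = 4.32e-19). MCIDAS, MYB, TP73, E2F4 and E2F5 were not called.

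In the epididymis 2 of the 16 genes were called higher than in the accessory glands and 0 lower, where 17.7% of all genes were called higher and 2.42% lower. They were FOXJ1, the master regulator of motile cilia, with 0.601 to 8.99 TPM against 0.0226 to 0.597 TPM (1.57, adjusted p = 1.73e-05), and RFX2 (1.18, adjusted p = 3.98e-04). FOXJ1 did not overlap between epididymis and accessory glands, whereas RFX2 did, with 1.16 to 8.46 TPM against 0.154 to 2.73 TPM. RFX2 was not called after scaling by size factors (0.805) or without BMI replicate 1 of the epididymis (0.907). Markers of spermatids (5 of 10 called higher, median 1.25) and of smooth muscle (5 of 5, 3.14) moved with this comparison. So did those of epididymis epithelium (5 of 5, 5.62) and of multiciliated cells (2 of 11, 0.71). Secretory epithelium markers went the other way (1 of 6 lower, median -0.51), and the part of these cell types was not tested. In DSE against BMI testis 3 genes were called lower, CDC20B, DEUP1 and RFX3, where 3.68% of all genes were called lower and 1.1% higher. The list median was -0.78 against -0.05 over all genes. Germ cell markers moved with it, with medians of -0.81 for spermatocytes (1 of 10 called lower) and -0.71 for spermatids (1 of 10 lower), as did those of multiciliated cells (3 of 11 lower, median -0.38). Markers of Leydig cells (2 of 6 called higher, median 0.65) and Sertoli cells (1 of 9 higher, median 0.49) moved the other way, and the part of these cell types was not tested. DEUP1, which builds centrioles in multiciliated cells, was lower by -1.26 (adjusted p = 0.0474) and RFX3 by -1.28 (adjusted p = 0.0283). Without DSE replicate 2, the library low in spermatid markers, they were at -0.887 and -0.917 (adjusted p = 0.372 and 0.245), and the number called fell from 3 to 1. The number was also 1 without any 1 of the BMI testis libraries and 5 without DSE replicate 3, and the call of DEUP1 was lost in 26 of 34 alternatives.

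Genes known as targets of the shared seed moved in both directions in testis. Of 27 listed genes 26 were tested, of which 5 were called higher in testis and 7 lower, against 34.6% higher and 12.7% lower over all genes. Their median was -0.35 against 0.31 over all genes. All 6 secretory epithelium markers (median -6.12) and all 5 smooth muscle markers (median -2.94) were also called lower in testis, and their part in the lower targets was not tested. CD44, a cell adhesion receptor, had 1.56 to 4.63 TPM in testis and 5.41 to 150 TPM in the other glands (-3.40, SE 0.23, adjusted p = 1.01e-12). LEF1, a transcription factor of Wnt signalling, had 10.3 to 25.9 TPM against 0.152 to 6.96 TPM (3.03, SE 0.21, adjusted p = 1.36e-12). MYC had 1.22 to 2.37 TPM against 4.4 to 60.7 TPM (-2.90, SE 0.36, adjusted p = 7.49e-08).

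In the epididymis, 7 targets were called higher than in the accessory glands and 2 lower, where 17.7% of all genes were called higher and 2.42% lower. The list median was 0.48 against 0.41 over all genes. The smooth muscle markers moved with this comparison, as given above, and their part was not tested. The targets called were led by CDK6 (-1.55, adjusted p = 4.97e-05), E2F3 (1.43, adjusted p = 1.74e-05) and LEF1 (1.38, adjusted p = 1.09e-05). CDK6 is a kinase of the start of the cell cycle, and E2F3 a transcription factor that acts after it. After scaling by size factors the number called fell from 9 to 4, with 9.01% of all genes called higher and 5.1% lower, and LEF1 was no longer called (0.985). No target was called between the breeds in testis (0 of 26).

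Seed matches were looked for in the 3′ untranslated regions of the RefSeq transcript with the longest coding sequence of each gene. The match CACTGCC pairs with bases 2 to 8 of ssc-miR-34c. It was found in 18 of the 24 listed targets that had such a region (75%), whose median length was 1838 bases, and in 13.9% of 18093 genes, with a median of 848 bases. Within the first 1000 bases of regions at least that long, 6 of 17 targets (35.3%) and 11.4% of all genes held it. The list was typed from genes known as targets, so this share is a description. It was found in 0 of 11 p53 pathway genes and 4 of 19 genes of the multiciliated list.

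Sites of targets that rose, CCNE2 and TGIF2, and that fell, DLL1 and NOTCH2, in testis are shown with 10 bases on each side and the match in capitals. They are examples, picked from the called targets with a match after the values were seen. The positions of the matches on Sscrofa11.1 are chr4:41820561-41820567 (plus strand), chr17:39855983-39855989 (plus), chr1:210672-210678 (plus) and chr4:101149407-101149413 (plus).
CCNE2: tcagaagtttCACTGCCattctctgat
TGIF2: tcctttggatCACTGCCaaatgtcggg
DLL1: cagtgggtgtCACTGCCgtccccgcgt
NOTCH2: aggaggaagaCACTGCCtttcaagcat
CCNE2, a cyclin of S phase entry, was higher in testis by 1.23 (adjusted p = 2.54e-07) and TGIF2 by 1.64 (adjusted p = 9.99e-08). DLL1 was at -1.90 (adjusted p = 4.565e-10). NOTCH2, a Notch receptor, was at -1.04 (adjusted p = 0.00565), a call that was lost when any 1 of 7 libraries was left out (-0.997 to -0.855). NOTCH2 held a further match, at position 4635 of its region, which is not shown. Of the 17 tested targets with a match, 4 were called higher and 4 lower in testis, with a median of -0.31, against 34.6% higher, 12.7% lower and a median of 0.31 over all genes. Of the 6 without a match, 0 were called higher and 3 lower, with a median of -1.65.

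Genes of the p53 pathway, which lies upstream of miR-34a, were mostly not called. All 11 were tested. In testis, where 34.6% of all genes were called higher and 12.7% lower, 1 was called higher, SESN2, a stress-response gene, at 1.23 (adjusted p = 1.89e-05), and 1 lower, TP63, a p53 relative of basal epithelium, at -2.06 (adjusted p = 4.43e-08), with a median of -0.24. In the epididymis, where 17.7% of all genes were called higher, TP63, at 1.43 (adjusted p = 5.29e-05), and BAX, which promotes apoptosis, at 1.04 (adjusted p = 3.61e-07), were called higher. After scaling by size factors the number called in testis rose from 2 to 4, with 31% of all genes called higher and 15.8% lower, and that in epididymis fell to 0, where 9.01% and 5.1% were. SESN2 in testis (0.971) and TP63 and BAX in epididymis (0.918 and 0.448) were not called. None was called between the breeds in testis (0 of 11). Beside these genes, secretory epithelium markers were called lower (6 of 6, median -6.12) and spermatid markers higher (10 of 10, median 9.29) in testis. In epididymis the markers of smooth muscle (5 of 5, median 3.14) and of epididymis epithelium (5 of 5, median 5.62) were called higher. Of the secretory epithelium markers, 1 of 6 was called lower there. The part of these cell types was not tested.

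**Figure D5:**
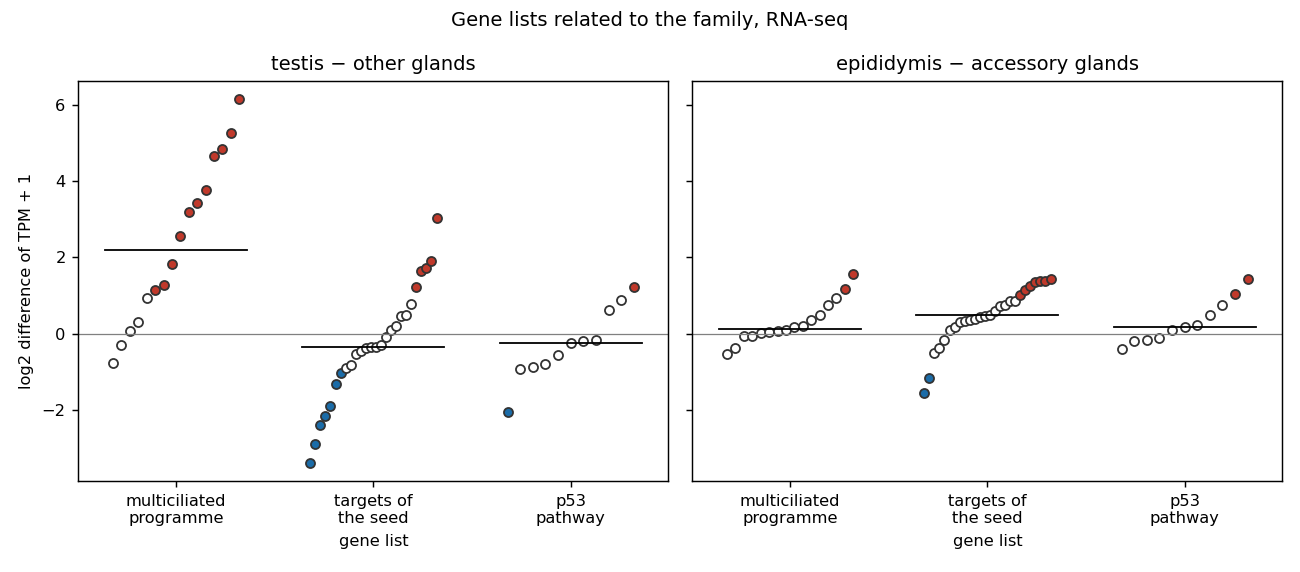
Log2 difference of TPM + 1 for each tested gene of 3 lists, testis against the other glands (left) and epididymis against the accessory glands (right); filled points were called, red higher and blue lower, and bars are list medians. In testis 11 of 16 genes of the multiciliated programme were called higher, and 5 of 26 targets were called higher and 7 lower.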

How the data were processed

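Members and gene lists were chosen with earlier results of these data known. The authors trimmed small RNA reads, removed other structured RNAs with Bowtie 1.3.1 and quantified miRNAs with miRDeep2; the deposited unit is RPM. The deposited RNA-seq unit is TPM per transcript, estimated by the authors with Salmon 1.9.0 on Ensembl plus Iso-seq transcripts, and was summed here per gene. The deposited Iso-seq counts are full-length reads per isoform. Versions are from the submitters' processing notes. The labels name rRNA depletion for RNA-seq and the study's methods name poly-T selection.

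log2(value + 1) was fitted with limma 3.58.1 (trend) over group means of the 10 groups, for entries with at least 1 RPM or TPM in at least 3 libraries, with Benjamini-Hochberg adjustment over all features tested; calls needed adjusted p below 0.05 and a log2 difference of at least 1 in size. The pseudocount understates changes of low features. In 28 libraries the spacing of low RPM values gave back whole reads (at least 96.8% of low values whole within 0.1 of a step) and tested with edgeR 4.0.16 as an alternative. Other alternatives were a pseudocount of 0.1, no filter, size factors, a replicate block, 1 row per mature name and leaving out each library. The fits were tested on simulated data. Of each list, the 3 called genes of largest change per comparison are named, plus CDC20B and BTG4; HOATZ was named as the gene over a member precursor, and further genes, such as those behind the printed sites, after their values were seen. Sequences and RefSeq models come from Sscrofa11.1, the build of the files. Of 257 miRNA genes named alike in the deposited annotation and RefSeq, 224 had the same start and end.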

Additional observations from a re-analysis of the deposited data

How the results depend on the processing

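Precision is limited by 3 libraries per group, by the shallower testis libraries and by the dependence of testis levels on scaling. Of ssc-miR-34a, size factors gave -1.65, -1.09, 1.15 and -1.83 for testis against the other glands, epididymis against accessory glands, vesicular against prostate gland and testis against prostate gland, all then called, and edgeR gave -2.02, -1.55, 1.28 and -2.29, also called. Its testis minus epididymis difference turned to -0.84 and -0.864, epididymis minus bulbourethral gland to -0.125 and -0.506 with the same settings, and DSE minus BMI in prostate gland to 0.0187 with edgeR, none called. Its breed call in epididymis was lost, at -1.4 and -0.716. Of ssc-miR-34c, DSE minus BMI turned to 0.0675 and 0.24 in testis and 0.141 and 0.195 in vesicular gland, and to 0.107 in prostate gland with edgeR, none called. The cause was not tested.

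The genes called in the multiciliated list went from 2 to 5 with a pseudocount of 0.1 and to 1 with size factors in epididymis, and from 3 to 0 with a pseudocount of 0.1 between breeds in testis. With size factors the targets called in epididymis went from 9 to 4, and the p53 genes called from 2 to 4 in testis and from 2 to 0 in epididymis. CDC20B in epididymis turned to -0.057 with size factors.

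Leaving out each library gave these ranges. For ssc-miR-34a they were -0.438 to 0.113 in testis against the other glands, -1.08 to -0.663 in epididymis against accessory glands, -0.153 to 0.26 in epididymis minus bulbourethral gland, -0.0414 to 1.06 for DSE minus BMI in testis and -2.37 to -1.64 in epididymis, and an interaction adjusted p of 0.0492 to 0.354. For ssc-miR-34c they were 0.825 to 2.03 in epididymis against accessory glands, -1.37 to -0.166 in epididymis minus bulbourethral gland, and for DSE minus BMI -0.464 to 0.545 in testis, -2.85 to -0.449 in epididymis and -0.69 to 0.138 in prostate gland. Without DSE replicate 1 of the epididymis, epididymis minus bulbourethral gland was called at -1.37. Genes called ranged from 1 to 5 in the multiciliated list between breeds, 1 to 3 in epididymis and 1 to 2 in the p53 list in epididymis. CDC20B in epididymis ranged from -0.0111 to 0.0806 and HOATZ between breeds from -0.042 to 0.938.

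Whether the replicate numbers pair the libraries was not settled. Of 60 pairs of same-numbered libraries from other glands of the same breed, 22 had deviations correlated above 0.1 (median r 0.0419). Of 120 such pairs with unlike numbers, 24 did (median r -0.0226). With the replicate block, ssc-miR-34c in testis kept a difference of 8.01 and the multiciliated genes called between breeds went from 3 to 2, as DEUP1 was lost (adjusted p = 0.0642). The call of ssc-miR-34a between prostate and bulbourethral gland was also lost (adjusted p = 0.0569). Among the other member, list and named gene results recomputed with the block, no call changed.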
